A study of Mus musculus with 50 samples.

Results

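The constitutive proteasome subunits were the genes whose symbols join Psma, Psmb, Psmc or Psmd to a number, with the inducible and thymus-specific subunits Psmb8, Psmb9, Psmb10 and Psmb11 left out. Of 52338 genes joined across the 3 count tables, 35 met this rule, 15 of them in the core and 20 in the cap. By role these were 8 alpha ring genes, 7 beta ring genes, 6 ATPases and 3 further subunits of the base, 8 lid subunits and 3 chaperones that carry subunit symbols, Psmd5, Psmd9 and Psmd10. In each set 34 of the 35 had enough counts to be tested. The exception in every set was Psma8, the testis form of an alpha ring subunit, with 1 count over all quadriceps libraries, 70 over the fat libraries at 1 h and 66 over those at 6 h.

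The proteasome is the protease that degrades most short-lived and damaged proteins of the cytosol and nucleus after they have been tagged with ubiquitin. Its core is a stack of rings in which the alpha rings gate the entry and the beta rings carry the active sites. Its cap binds ubiquitin chains with the base and lid, removes the chain with the lid enzyme Psmd14 and unfolds the substrate with the ATPase ring. Subunit transcripts are known to be raised together by the factor Nfe2l1 when proteasome activity falls short, and in muscle the proteasome is known as the main route of protein loss in fasting and disuse.

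The libraries came from male mice carrying hM3DGq, an engineered receptor that responds to the drug CNO. TG mice were Gfral Cre-positive and WT mice were Cre-negative, so that in TG mice CNO acts on neurons that express GFRAL, the hindbrain receptor for the stress hormone GDF15. All mice, WT included, received CNO at 1 mg/kg, and no group without CNO was used here. Quadriceps came from mice that were clamped (10 TG and 10 WT), and perigonadal white fat (pgWAT) was taken 1 h (9 TG and 9 WT) or 6 h (6 TG and 6 WT) after CNO. The study asked how activating these neurons changes gene expression in a tissue whose glucose uptake had fallen (quadriceps) and in a tissue where it had increased (pgWAT). The Gfral driver directs the receptor to these neurons and not to muscle or fat, and the ages of the mice are not given in the sources used here. A TG quadriceps library (TG 10) had a treatment label of 1 h where its title says clamped, and it was grouped by its title.

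Gene counts per library ran between 959980 and 2613672 in quadriceps, between 976610 and 4852560 in pgWAT at 1 h, and between 9150496 and 12883462 in pgWAT at 6 h. The subunits took 0.549% to 0.658% of the gene counts of a quadriceps library, 0.429% to 0.525% at 1 h and 0.409% to 0.455% at 6 h. Levels below are gene counts scaled by library size (CPM) with TMM factors within a set. They come from the 3′ ends of transcripts, so they are not divided by length and are compared between libraries, not between genes. Summed muscle fibre markers stood at 44730 to 52550 CPM in TG quadriceps and 36140 to 62330 CPM in WT quadriceps, and summed adipocyte markers at 14720 to 22900 CPM in TG fat and 16260 to 29080 CPM in WT fat at 6 h. Some libraries stood apart by transcripts of other tissues or of heat shock: 2 WT libraries in quadriceps, 3 TG and 6 WT libraries in pgWAT at 1 h, and 1 TG library (TG 2, with liver markers at 1462 CPM) at 6 h. In all 3 sets the subunit calls were the same without these libraries as with them. At 1 h this says little, since 0 subunits were called with them. Only 6 TG and 3 WT libraries were left there, and 1 gene of all tested was called, against 8 in full.

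In quadriceps no constitutive subunit passed the test between TG and WT mice. Of 34 tested, 0 passed an adjusted p of 0.05 in edgeR's quasi-likelihood test and in DESeq2, while 3 fell under 0.05 before adjustment. Of all 8070 genes 942 fell under 0.05 before adjustment. The background share of calls in this comparison was 2.03% of 8070 genes, 1.09% higher and 0.942% lower. Log2 changes of the subunits had a median of 0.03, against 0.00 over all genes tested, and 19 of 34 were above 0. All 34 confidence intervals (95%) lay within 0.5 log2 units of no change, the lowest bound being -0.39 for Psmd7 and the highest 0.41 for Psmd9. The core had 10 of 14 tested subunits above 0 and the cap 9 of 20.

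The quadriceps subunit with the smallest p was Psmd7, which pairs with Psmd14 in the lid. Its levels were 242.1, 274 and 317 CPM (lowest, median and highest) in TG muscle, against 273, 334 and 425 CPM in WT muscle. The groups overlapped, and all 10 TG libraries lay below the WT mean, with a log2 change of -0.24 ± 0.07 (SE) and an edgeR adjusted p of 0.0771. Without WT 3 or without WT 6 it passed the threshold. Psmd14, the enzyme that cuts ubiquitin chains from the substrate, had 60.3, 68.4 and 80.9 CPM in TG muscle and 47.3, 57.6 and 71.3 CPM in WT muscle. All 10 TG libraries lay above the WT mean, and its log2 change was 0.22 ± 0.08 (SE; edgeR adjusted p = 0.213). Psmb7, which carries the trypsin-like active site, gave a log2 change of 0.16 ± 0.07 (SE; edgeR adjusted p = 0.31). The subunit with the largest p was the lid subunit Psmd11, with a log2 change of -0.01 ± 0.08 (SE).

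In pgWAT 1 h after CNO no constitutive subunit passed the test either. Of 34 tested, 0 passed in edgeR or in DESeq2, and 0 fell under 0.05 before adjustment. Of all 11087 genes 512 fell under 0.05 before adjustment. Only 0.0722% of 11087 genes, 8 in number, were called in this comparison (0.0541% higher and 0.018% lower), so the background was also near 0. The subunits had a median log2 change of -0.03, against 0.01 over all genes, and 13 of 34 were above 0. For 33 of 34 the interval lay within 0.5 log2 units of no change. The exception was the beta ring subunit Psmb2, whose lower bound was -0.50 (unrounded, -0.504), and the highest bound was 0.39 for Psmb5.

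The smallest p at 1 h belonged to the ATPase Psmc2, with 103, 128 and 153 CPM in TG fat and 114, 137 and 157 CPM in WT fat. Its groups overlapped, at a log2 change of -0.14 ± 0.08 (SE). The alpha ring subunit Psma6 followed with 125, 133 and 173 CPM in TG fat and 129.7, 153 and 168 CPM in WT fat, a log2 change of -0.13 ± 0.08 (SE). The ubiquitin receptor Psmd4 gave -0.11 ± 0.09 (SE), and the lid subunit Psmd6, with the largest p, gave 0.00 ± 0.11 (SE). The edgeR adjusted p was 1 for each of these 4.

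In pgWAT 6 h after CNO 3 of 34 subunits were higher in TG fat and 0 were lower, which is 8.82% of those tested against a background of 14.4% of 14359 genes called (6.88% higher and 7.54% lower). The 3 were the alpha ring subunit Psma6, the ATPase Psmc4 and the lid subunit Psmd8. Before adjustment 11 had a p under 0.05, 10 of them higher and the chaperone Psmd5 lower. Of all 14359 genes 3821 had a p under 0.05 before adjustment. DESeq2 called 4 higher, adding Psmd6, and 0 lower, while over all genes it called 1166 higher and 1269 lower. The changes were small. The median log2 change was 0.08, against 0.00 over all genes, 29 of 34 were above 0, and the intervals reached from -0.37 for Psmd5 to 0.39 for Psma6. The plot of log2 changes by role shows the 3 sets side by side.

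**Figure D1:**
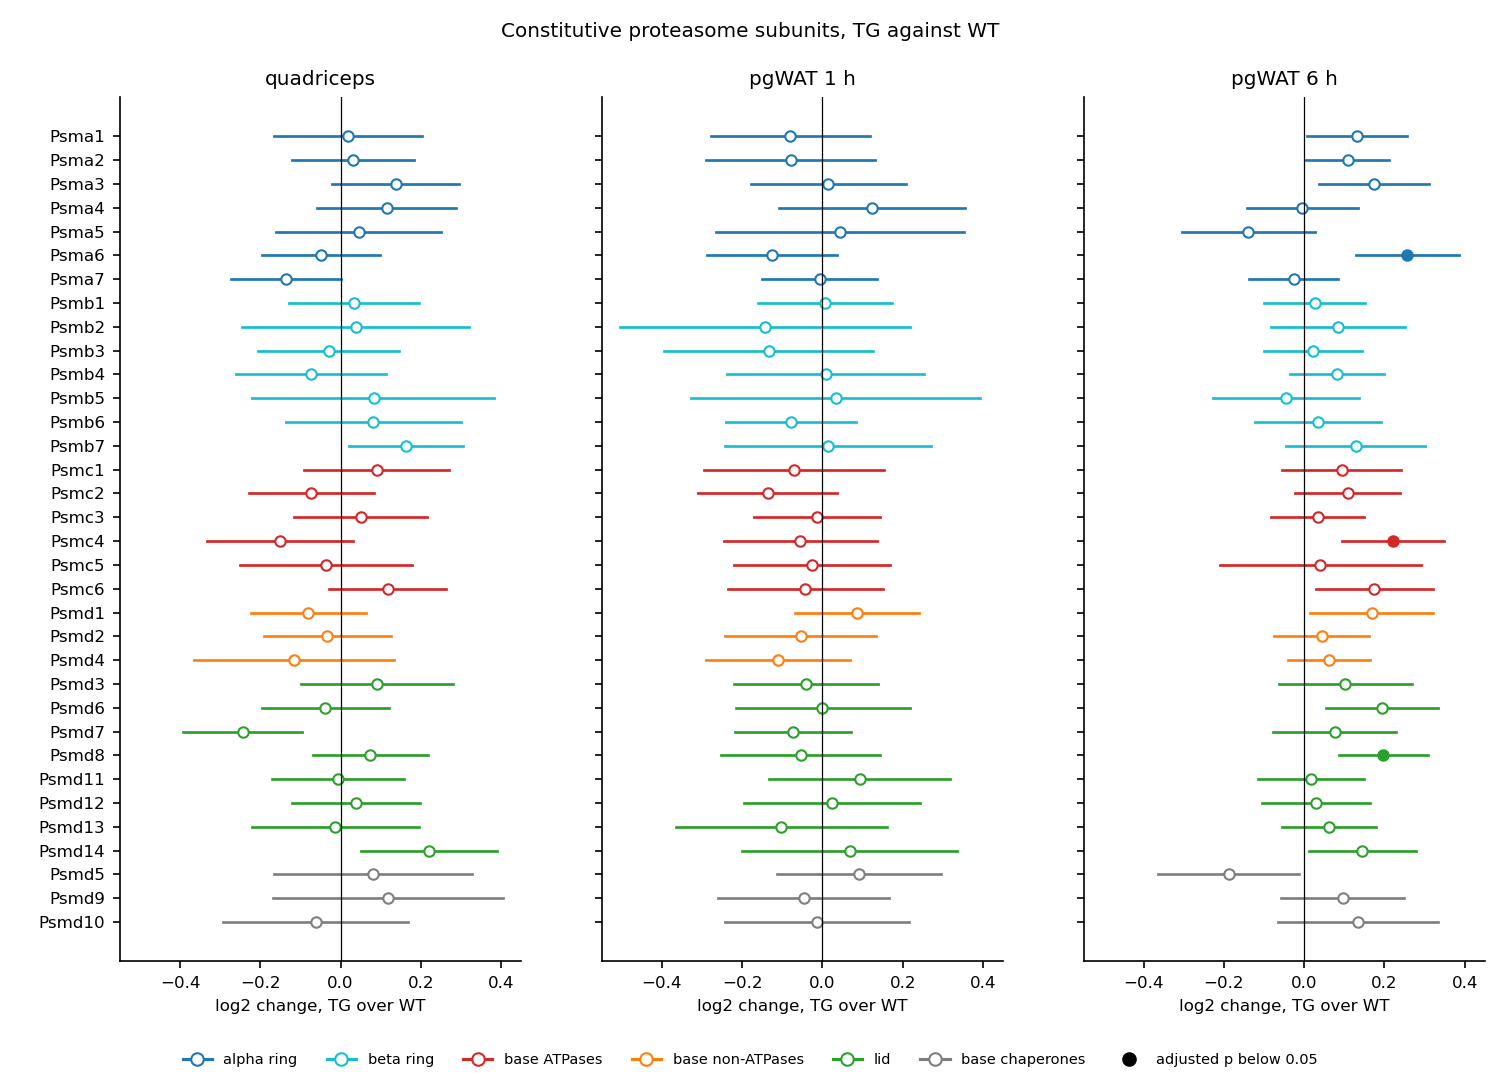
Log2 change of each of the 34 tested subunits, TG over WT (x axis), by subunit (y axis) and set (panels), with 95% confidence intervals as lines. Colours mark the role in the proteasome and filled points an edgeR adjusted p below 0.05. The filled points are Psma6, Psmc4 and Psmd8 at 6 h, and 29 of 34 points lie above 0 there, against 19 of 34 in quadriceps and 13 of 34 at 1 h.

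Within the core 1 of 14 tested subunits was called at 6 h and 10 were above 0. Psma6 lies on mouse chromosome 12 (GRCm38, 55384222 to 55418454, plus strand). It stood at 126, 145 and 162 CPM in TG fat, against 116, 122 and 124 CPM in WT fat, and the groups did not overlap. It was higher in 6 of 6 TG libraries, with a log2 change of 0.26 ± 0.06 (SE; edgeR adjusted p = 0.00746). A second alpha ring gene, Psma2, also showed no overlap, its lowest TG library being at 161.8 CPM and its highest WT library at 160.8 CPM, and did not pass (log2 change 0.11 ± 0.05, SE; edgeR adjusted p = 0.169). Psma4 had the largest p, with a log2 change of -0.01 ± 0.07 (SE; unrounded, -0.005). Psma5 had a log2 change of -0.14 ± 0.08 (SE; edgeR adjusted p = 0.28) and was called lower when TG 1, its highest TG library at 61.6 CPM, was left out. In the beta ring edgeR and DESeq2 called 0 of 7, and 0 fell under 0.05 before adjustment.

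Within the cap 2 of 20 subunits were called at 6 h and 19 were above 0. Psmc4, an ATPase of the base on chromosome 7 (28041707 to 28050101, minus strand), had 67.2, 76.0 and 78.3 CPM in TG fat and 59.1, 64.7 and 68.0 CPM in WT fat. Its lowest TG library lay below the highest WT library, and 6 of 6 TG libraries lay above the WT mean (log2 change 0.22 ± 0.06, SE; edgeR adjusted p = 0.0192). Psmd8, a lid subunit also on chromosome 7 (29174188 to 29180701, minus strand), had 254, 260 and 276 CPM in TG fat and 216, 226 and 248 CPM in WT fat, with no overlap (log2 change 0.20 ± 0.05, SE; edgeR adjusted p = 0.0175). The lid subunits Psmd6 and Psmd14 were next, at 0.19 ± 0.07 and 0.15 ± 0.06 (SE; edgeR adjusted p = 0.0611 and 0.145). The base chaperone Psmd5, which keeps unassembled ATPases apart from the core, was the cap gene below 0. It had 22.9, 25.7 and 28.2 CPM in TG fat and 24.6, 29.2 and 33.1 CPM in WT fat, and all 6 TG libraries lay below the WT mean (log2 change -0.19 ± 0.08, SE; edgeR adjusted p = 0.156).

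**Figure D2:**
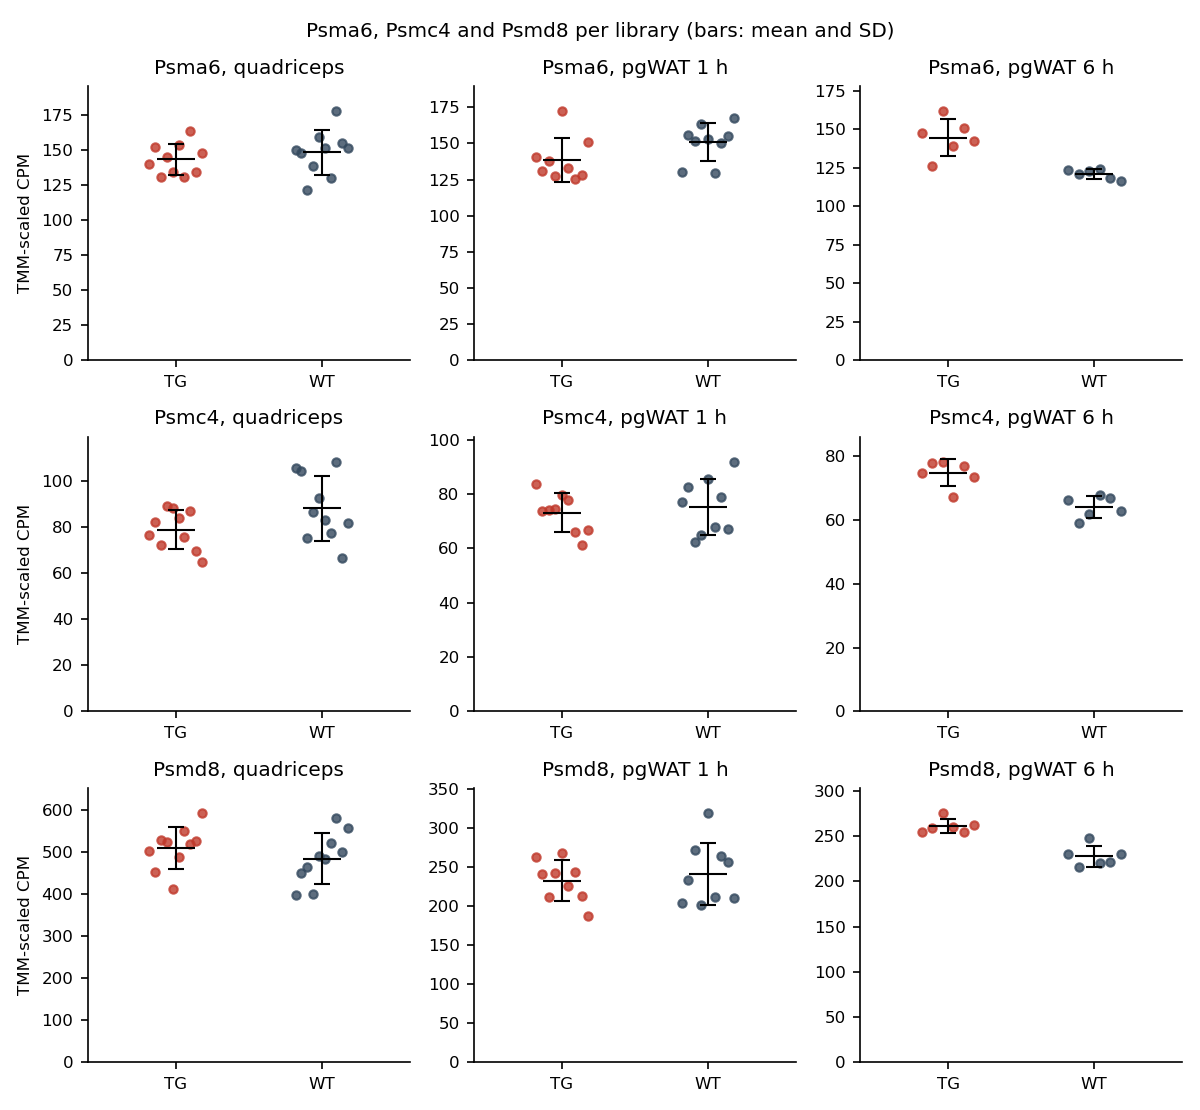
TMM-scaled CPM of Psma6, Psmc4 and Psmd8 (rows) in each library, TG left and WT right, by set (columns), with mean and SD as bars and the y axis starting at 0. At 6 h the lowest TG library of Psma6 (126 CPM) and of Psmd8 (254 CPM) lies above the highest WT library (124 and 248 CPM), while in quadriceps and at 1 h the groups of all 3 genes overlap.

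Summed over the cap, TG fat at 6 h had 2575, 2674 and 3001 CPM (lowest, median and highest), against 2500, 2537 and 2563 CPM in WT fat, so that 6 of 6 TG libraries lay above the highest WT library. The summed core had 1660, 1730 and 1897 CPM in TG fat and 1597, 1666 and 1746 CPM in WT fat, and 3 of 6 TG libraries lay above the highest WT library. These sums depended on the scaling. With counts divided by the library totals alone, the cap ran between 2485 and 2787 CPM in TG fat and between 2437 and 2664 CPM in WT fat, and the groups overlapped. In that scaling Psma6 alone was called, the subunit median was 0.02, 19 of 34 were above 0, and the split of all called genes was 665 higher and 1457 lower, against 988 higher and 1083 lower with TMM. The median over all genes moved with it, to -0.07.

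TG 3 was high across many subunits in TMM-scaled CPM. It had the highest level of all 12 libraries for 19 of the 34 subunits and the lowest for 0. By library totals it was highest for 8 and lowest for 3, and TG 1 was highest for 11. Its ATPase Psmc5 was at 213 CPM with TMM scaling, against 123 to 139 CPM in the other TG libraries and 129 to 146 CPM in WT fat. Without TG 3 the median log2 change was 0.05, 26 of 34 were above 0, and Psma6, Psmc4 and Psmd8 were still the called subunits.

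**Figure D3:**
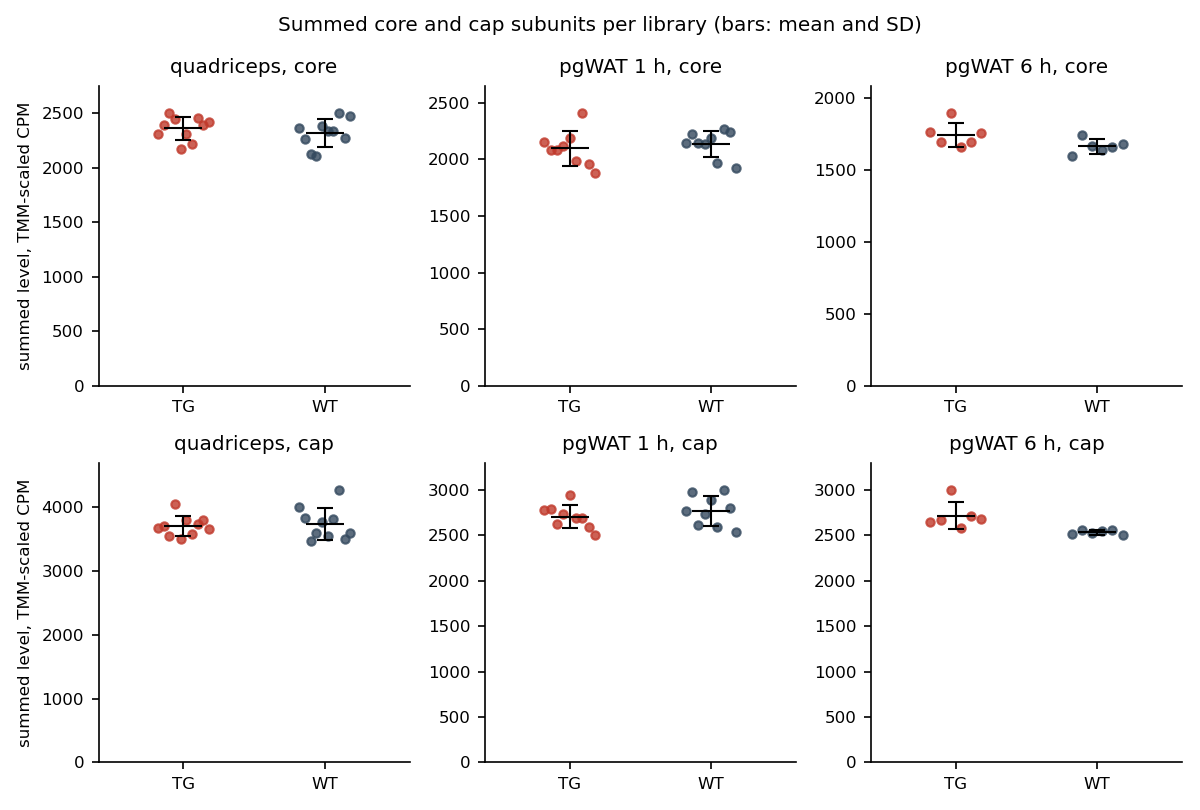
Summed level of the core subunits (upper row) and the cap subunits (lower row) in each library, in TMM-scaled CPM with the y axis starting at 0, TG left and WT right, with mean and SD as bars. In the cap panel at 6 h the TG libraries run between 2575 and 3001 CPM and the WT libraries between 2500 and 2563 CPM, while in quadriceps and at 1 h TG and WT overlap in both rows.

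In the other sets the sums lay together. The quadriceps cap had 3501, 3685 and 4042 CPM in TG muscle and 3459, 3678 and 4268 CPM in WT muscle, and the core had 2174, 2391 and 2500 CPM in TG muscle and 2108, 2339 and 2498 CPM in WT muscle. At 1 h the cap had 2507, 2690 and 2939 CPM in TG fat and 2536, 2771 and 3000 CPM in WT fat, and the core had 1882, 2083 and 2406 CPM in TG fat and 1922, 2145 and 2264 CPM in WT fat. The ratio of core to cap was 0.639 ± 0.030 in TG muscle and 0.622 ± 0.035 in WT muscle (SD, n = 10 each). It was 0.775 ± 0.048 in TG fat and 0.772 ± 0.025 in WT fat at 1 h (SD, n = 9 each), and 0.644 ± 0.016 in TG fat and 0.657 ± 0.018 in WT fat at 6 h (SD, n = 6 each).

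The genotype effects of the sets were compared by the interaction of set and genotype. Between pgWAT at 6 h and at 1 h, 1 of 34 subunits differed, against a background of 4.21% of 13022 genes. This was Psma6, with a log2 change of 0.26 at 6 h and -0.13 at 1 h, a difference of 0.39 ± 0.10 (SE; edgeR adjusted p = 0.0223). The call was lost when genes with low counts were not filtered (adjusted p = 0.0606). Psmc4 and Psmd8 differed by 0.28 ± 0.12 and 0.25 ± 0.13 (SE; edgeR adjusted p = 0.198 and 0.332), so their effect was not shown to be specific to 6 h. Between quadriceps and pgWAT at 6 h, 0 of 34 differed in edgeR, against an edgeR background of 5.06% of 10729 genes (543 genes). Before adjustment 4 fell under 0.05. DESeq2 called Psma6 and Psmc4, and it called 676 genes in all. The 6 h libraries were made with another kit and hold more counts than the others, so time cannot be told apart from kit and depth.

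The active sites of the core lie on Psmb5 (chymotrypsin-like), Psmb6 (caspase-like) and Psmb7 (trypsin-like). In immune cells and under interferon these subunits are replaced by Psmb8, Psmb9 and Psmb10, which form the immunoproteasome. The promoters of Psmb5 and Psmb6 are shown as examples of the constitutive genes and that of Psmb9 as an example of the inducible ones. They are RefSeq promoters (GRCm38.p6, 250 bases before to 50 after the RefSeq gene start) at chr14:54617946-54618245 (minus strand), chr11:70525107-70525406 (plus strand) and chr17:34187281-34187580 (minus strand), each 5′ to 3′. Capitals in Psmb5 and Psmb6 mark TGACNNNGC, the core of the antioxidant response element that Nfe2l1 and Nfe2l2 bind, and capitals in Psmb9 mark CCAAT, the CCAAT box, found there on the reverse strand as ATTGG.
Psmb5: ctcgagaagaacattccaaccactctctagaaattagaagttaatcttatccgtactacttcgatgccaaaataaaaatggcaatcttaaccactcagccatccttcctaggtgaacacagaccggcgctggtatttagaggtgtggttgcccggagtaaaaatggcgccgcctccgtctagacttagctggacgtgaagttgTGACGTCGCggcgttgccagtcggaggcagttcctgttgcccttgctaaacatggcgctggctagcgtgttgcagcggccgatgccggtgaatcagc
Psmb6: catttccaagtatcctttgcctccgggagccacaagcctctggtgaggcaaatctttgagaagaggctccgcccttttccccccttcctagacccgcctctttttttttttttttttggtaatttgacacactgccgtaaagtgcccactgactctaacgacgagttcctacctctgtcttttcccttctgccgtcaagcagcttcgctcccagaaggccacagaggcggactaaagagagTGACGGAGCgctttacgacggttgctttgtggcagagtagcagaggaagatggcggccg
Psmb9: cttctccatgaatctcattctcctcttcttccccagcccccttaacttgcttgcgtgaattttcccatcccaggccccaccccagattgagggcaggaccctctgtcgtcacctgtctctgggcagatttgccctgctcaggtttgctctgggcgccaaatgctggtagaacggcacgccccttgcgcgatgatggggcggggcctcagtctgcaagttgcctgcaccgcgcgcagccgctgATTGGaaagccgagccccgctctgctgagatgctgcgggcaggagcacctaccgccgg

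Both strands were searched, in 1 promoter a gene, and the table held 28 of the 35 subunits. TGACNNNGC was in 5 of these 28 promoters (Psmb5, Psmb6, Psmc6, Psmd9 and Psmd12), which is 17.9%, against 12.5% of 27025 promoters in all. CCAAT was in 11 of 28, which is 39.3%, against 37.9% of all. Psma6 and Psmb9 were among the genes with CCAAT. The interferon gamma activated site TTCNNNGAA was in 1 of 28, Psmd2, which is 3.57%, against 8.47% of all. Of the immunoproteasome genes, Psmb8 carried it. These matches describe the letters of the windows and were not tested against the expression data.

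The 3 constitutive active subunits were not called in any set. At 6 h Psmb5 had 17.3, 20.4 and 23.3 CPM in TG fat and 18.8, 21.4 and 21.96 CPM in WT fat, a log2 change of -0.04 with an interval of -0.23 to 0.14 (unrounded change, -0.045). Psmb6 had 118, 126 and 156 CPM in TG fat and 117, 121.5 and 144.5 CPM in WT fat (interval -0.12 to 0.19). Psmb7 had 131, 154 and 194 CPM in TG fat and 126, 141 and 154 CPM in WT fat (interval -0.05 to 0.30). TG and WT overlapped for all 3.

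The immunoproteasome subunits were lower in TG fat at 6 h, all 3 of them, against a background of 7.54% of 14359 genes called lower. These 3 genes were listed with earlier results of these data known. Psmb9 had 28.3, 32.7 and 38.8 CPM in TG fat and 44.0, 50.7 and 52.3 CPM in WT fat, with no overlap (log2 change -0.62 ± 0.08, SE; edgeR adjusted p = 3.73e-05). Psmb8 had 50.4, 54.6 and 75.9 CPM in TG fat and 71.8, 82.6 and 87.8 CPM in WT fat (-0.50 ± 0.09, SE; edgeR adjusted p = 0.00117). Psmb10 had 41.4, 48.2 and 56.6 CPM in TG fat and 55.2, 61.4 and 68.3 CPM in WT fat (-0.35 ± 0.08, SE; edgeR adjusted p = 0.00438). The 6 TG libraries lay below the WT mean for each of the 3 genes, and TG 1 was the highest TG library for each. Their sum was 6.59% to 8.84% of the core and immunoproteasome counts together in TG fat, against 8.92% to 11.1% in WT fat, so these shares did not overlap. At 1 h the shares were 2.40% to 5.99% in TG fat and 2.62% to 4.36% in WT fat, with 0 of 3 called by edgeR, 0 at an unadjusted p under 0.05 and 0 called by DESeq2. In quadriceps the 3 genes had 89, 55 and 163 counts in all libraries together and were not tested in that set.

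Since a ratio within a library does not depend on scaling, each inducible subunit was also set against the constitutive subunit it replaces, a comparison chosen after these values were seen. The log2 ratio of Psmb9 to Psmb6 at 6 h was -1.99 ± 0.18 in TG fat and -1.34 ± 0.20 in WT fat (SD, n = 6 each), with no overlap, and the exact two-sided permutation p was 0.00216, the smallest that 924 regroupings can give (0.013 adjusted over 6 such tests). That of Psmb8 to Psmb5 was 1.49 ± 0.25 in TG fat and 1.95 ± 0.16 in WT fat (exact permutation p = 0.00866, adjusted 0.0173), and that of Psmb10 to Psmb7 was -1.68 ± 0.26 in TG fat and -1.20 ± 0.17 in WT fat (exact permutation p = 0.00866, adjusted 0.0173). In each of the 3, 6 of 6 TG libraries lay below the WT mean. The groups overlapped for Psmb8 to Psmb5 and for Psmb10 to Psmb7. At 1 h the differences of the log2 ratios, TG minus WT, were 0.04 to 0.22, with exact permutation p between 0.338 and 0.873. The difference in effect between 6 h and 1 h was -0.79, -0.68 and -0.49 log2 units for Psmb8, Psmb9 and Psmb10 in the interaction fit and did not pass (edgeR adjusted p = 0.052, 0.0951 and 0.125). The effect in quadriceps minus that at 6 h was 0.74, 1.13 and 0.57 log2 units for the same genes. This difference did not pass either (edgeR adjusted p = 0.194, 0.0837 and 0.226), with few quadriceps counts.

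Markers of immune cells are the values to set beside this, since fewer cells of a type and less RNA per cell cannot be told apart in bulk tissue. Summed lymphocyte markers at 6 h were 2.90 to 7.59 CPM in TG fat and 6.40 to 22.8 CPM in WT fat, with 0 of 7 genes at 0 in every library. The medians of these sums were 5.88 CPM in TG fat and 10.5 CPM in WT fat. The 2 lymphocyte genes tested, Cd3e and Cd3d, had log2 changes of -0.58 and -0.45, on 199 and 340 counts over all libraries. Of these 2, edgeR and DESeq2 called 0, and 0 had an unadjusted p under 0.05. With so few counts the null calls do not show that lymphocyte markers were unchanged. Summed macrophage markers were 903 to 1763 CPM in TG fat and 892 to 1323 CPM in WT fat, with 0 of 6 called by edgeR or DESeq2 and 0 at an unadjusted p under 0.05. TG 1 was the highest TG library in the macrophage sum (1763 CPM) and in the lymphocyte sum (7.59 CPM). Summed muscle fibre markers in the same fat were 61.9 to 121 CPM in TG and 22.6 to 51.2 CPM in WT libraries. Of their counts 7824 came from the actin gene Acta1 (log2 change 1.26; edgeR adjusted p = 0.00602), while the muscle creatine kinase Ckm had 14 counts over all 12 libraries and the myosin light chain Mylpf gave -0.09 (adjusted p = 0.894). The part of these cells in the subunit changes was not tested.

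**Figure D4:**
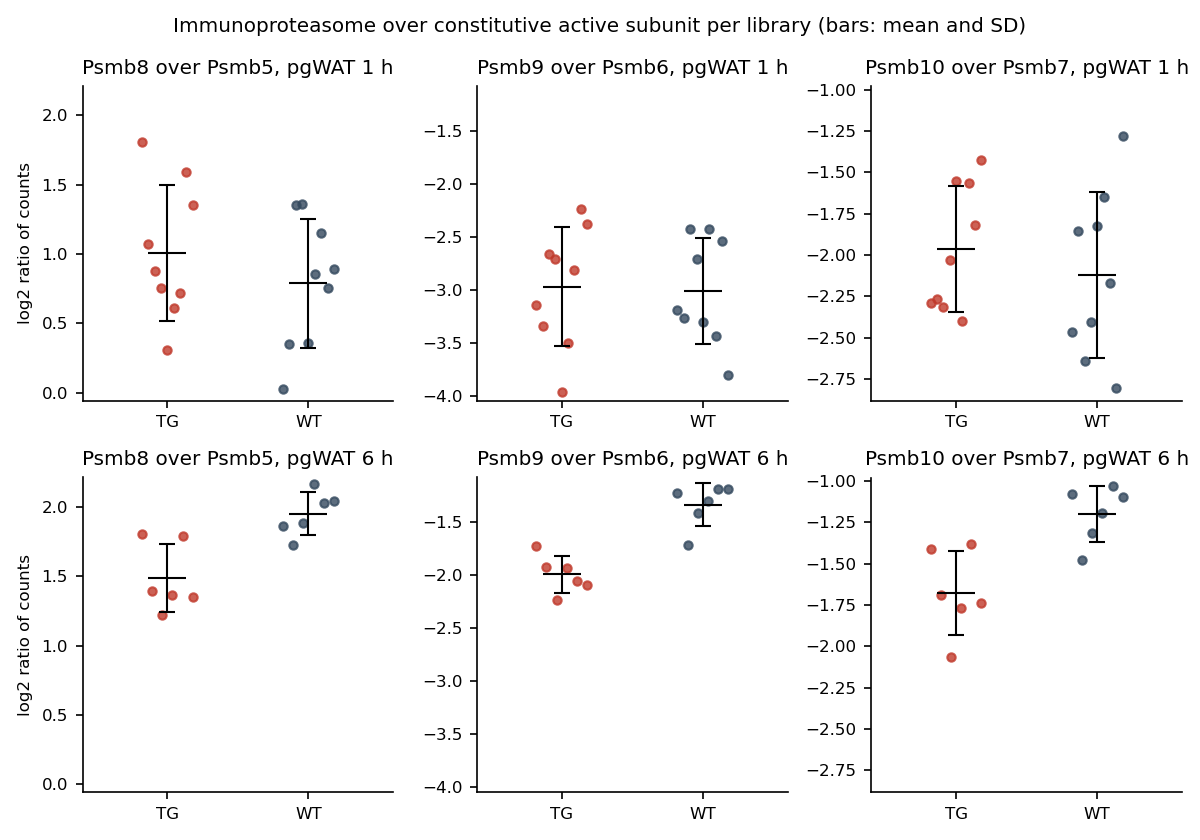
Log2 ratio of the counts of each immunoproteasome subunit to the constitutive active subunit it replaces (y axis, shared within a column), in each pgWAT library at 1 h (upper row) and 6 h (lower row), TG left and WT right, with mean and SD as bars. At 6 h the means are 1.49 in TG and 1.95 in WT for Psmb8 over Psmb5. They are -1.99 in TG and -1.34 in WT for Psmb9 over Psmb6, and -1.68 in TG and -1.20 in WT for Psmb10 over Psmb7. TG and WT overlap at 6 h for Psmb8 over Psmb5 and for Psmb10 over Psmb7, but not for Psmb9 over Psmb6. At 1 h TG and WT overlap in each panel.

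Around the proteasome 49 further genes of the pathway were listed, and 11 of the 47 tested at 6 h were called, 6 higher and 5 lower. This is 23.4%, against the background of 14.4% of all genes tested. The list was chosen with earlier results of these data known, so setting the 2 shares side by side is no test of the pathway. Among partners of the cap 1 of 8 rose and 1 fell. Zfand5, a zinc finger protein that binds the proteasome and raises its activity, had 120.4, 141 and 169 CPM in TG fat and 71.8, 76.7 and 83.8 CPM in WT fat, with no overlap (log2 change 0.89 ± 0.08, SE; edgeR adjusted p = 1.07e-06). Of the cap subunits outside the symbol rule, Sem1 of the lid gave 0.20 ± 0.07 (SE; edgeR adjusted p = 0.0572) and was called by DESeq2 (adjusted p = 0.0345), while the ubiquitin receptor Adrm1, at -0.04 ± 0.09 (SE), was called by neither tool. DESeq2 called 3 of the 8 partners higher, Zfand5, Sem1 and Zfand2a, and 1 lower, with 2435 genes called in all. Of the activators and the inhibitor 2 of 5 were called higher, the activator Psme4 at 0.24 ± 0.07 and the inhibitor Psmf1 at 0.24 ± 0.07 (SE; edgeR adjusted p = 0.034 and 0.0252). Each of these 2 calls was lost in 6 of 12 fits that leave out a library. Assembly factors had 0 of 6 called by edgeR, 0 with an unadjusted p under 0.05 and 0 called by DESeq2, and Pomp, which matures the core, gave 0.04 ± 0.06 (SE).

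Among 6 genes of subunit transcription Ddi2, the protease that activates Nfe2l1, was higher at 6 h. The background for the counts by list in this paragraph is 14.4% of all genes tested. It had 60.8, 72.4 and 82.4 CPM in TG fat and 42.2, 43.6 and 48.4 CPM in WT fat, with no overlap (log2 change 0.70 ± 0.07, SE; edgeR adjusted p = 3.68e-06). Nfe2l1 itself gave 0.08 ± 0.06 (SE; edgeR adjusted p = 0.422), with 246.8 to 284 CPM in TG fat and 228 to 273 CPM in WT fat. Ufd1, which hands ubiquitin-tagged proteins to the segregase p97, was higher (0.32 ± 0.07, SE; edgeR adjusted p = 0.00467), 1 of 6 in its list. The shuttle Ubqln4 was lower (-0.32 ± 0.09, SE; edgeR adjusted p = 0.0243), 1 of 5, and the call was lost without TG 2 (adjusted p = 0.0579), the library that stood apart, or without WT 2 (0.0613). Fbxo32, the ubiquitin ligase known as a marker of muscle atrophy, was higher in fat, at 25.8, 28.9 and 33.5 CPM in TG and 18.1, 20.8 and 22.7 CPM in WT libraries (0.50 ± 0.08, SE; edgeR adjusted p = 0.000479), 1 of 3 tested. Acta1 was also higher in this fat, as given above, and the part of muscle RNA in the Fbxo32 level was not tested. Ubiquitin genes and E1 enzymes had 0 of 5 called by edgeR, 0 with an unadjusted p under 0.05 and 0 called by DESeq2.

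In quadriceps 2 of 44 listed pathway genes were called, against 2.03% of all genes tested, and at 1 h 1 of 47, against 0.0722%. The limit given above for the choice of the list holds for these shares too. Txnl1, a thioredoxin that sits on the cap, was the gene called in all 3 sets. It had 86.8, 101 and 124 CPM in TG muscle and 156, 186 and 226 CPM in WT muscle. It had 47.8, 58.1 and 64.4 CPM in TG fat and 103.6, 114 and 120.5 CPM in WT fat at 1 h, and 32.0, 33.2 and 38.6 CPM in TG fat and 56.6, 59.6 and 62.9 CPM in WT fat at 6 h. The groups did not overlap in any set, at log2 changes of -0.91 ± 0.08, -1.0 ± 0.08 and -0.81 ± 0.07 (SE; edgeR adjusted p = 4.21e-10, 4.44e-08 and 2.54e-07). The other quadriceps call was Nfe2l2, a factor of the oxidative stress response, at -0.38 ± 0.11 (SE; edgeR adjusted p = 0.0493). It lost the call in 15 of 20 fits without a library, and its adjusted p was 0.195 without the libraries that stood apart. Fbxo32 in muscle had 677, 1248 and 1566 CPM in TG and 1132, 1389 and 2279 CPM in WT libraries (-0.33 ± 0.16, SE; edgeR adjusted p = 0.43).

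The subunit counts were divided differently in muscle and in fat, which is given as a description. Each subunit was taken as a share of all subunit counts in its library, in WT mice. Quadriceps was set against pgWAT at 1 h since these were made with the same library kit. The lid subunits Psmd8, Psmd7, Psmd11 and Psmd6 had the largest ratios of muscle to fat. Psmd8 took 8.02% ± 0.88 in quadriceps (SD, n = 10) and 4.91% ± 0.71 in pgWAT (SD, n = 9), a ratio of 1.63, and the highest fat library (6.28%) was just above the lowest muscle library (6.25%). Psmd7 took 5.49% ± 0.48 in quadriceps and 3.41% ± 0.25 in pgWAT, a ratio of 1.61 with no overlap. Psmd11 and Psmd6 had ratios of 1.56 and 1.49.

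Other lid subunits lay at the opposite end. Psmd14 took 0.979% ± 0.138 in quadriceps (SD, n = 10) and 1.70% ± 0.27 in pgWAT (SD, n = 9), a ratio of 0.577, and Psmd13 had a ratio of 0.598. In both the highest muscle library lay below the lowest fat library. The base chaperones Psmd5 and Psmd10 had the lowest ratios. Psmd5 took 0.399% ± 0.084 in quadriceps and 0.986% ± 0.147 in pgWAT, a ratio of 0.404, and Psmd10 took 0.619% ± 0.088 in quadriceps and 1.51% ± 0.22 in pgWAT, a ratio of 0.411. In TG libraries Psmd8 took 8.42% ± 0.80 in quadriceps (SD, n = 10) and 4.83% ± 0.34 in pgWAT at 1 h (SD, n = 9). Psmd7 took 4.64% ± 0.46 in TG quadriceps, against 5.49% in WT quadriceps, and 3.32% ± 0.32 in TG pgWAT at 1 h. The subunits were ranked by their ratios in WT mice alone. The library kit was shared, but tissue coincided with the RNA kit and the clamp, which cannot be told apart here.

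**Figure D5:**
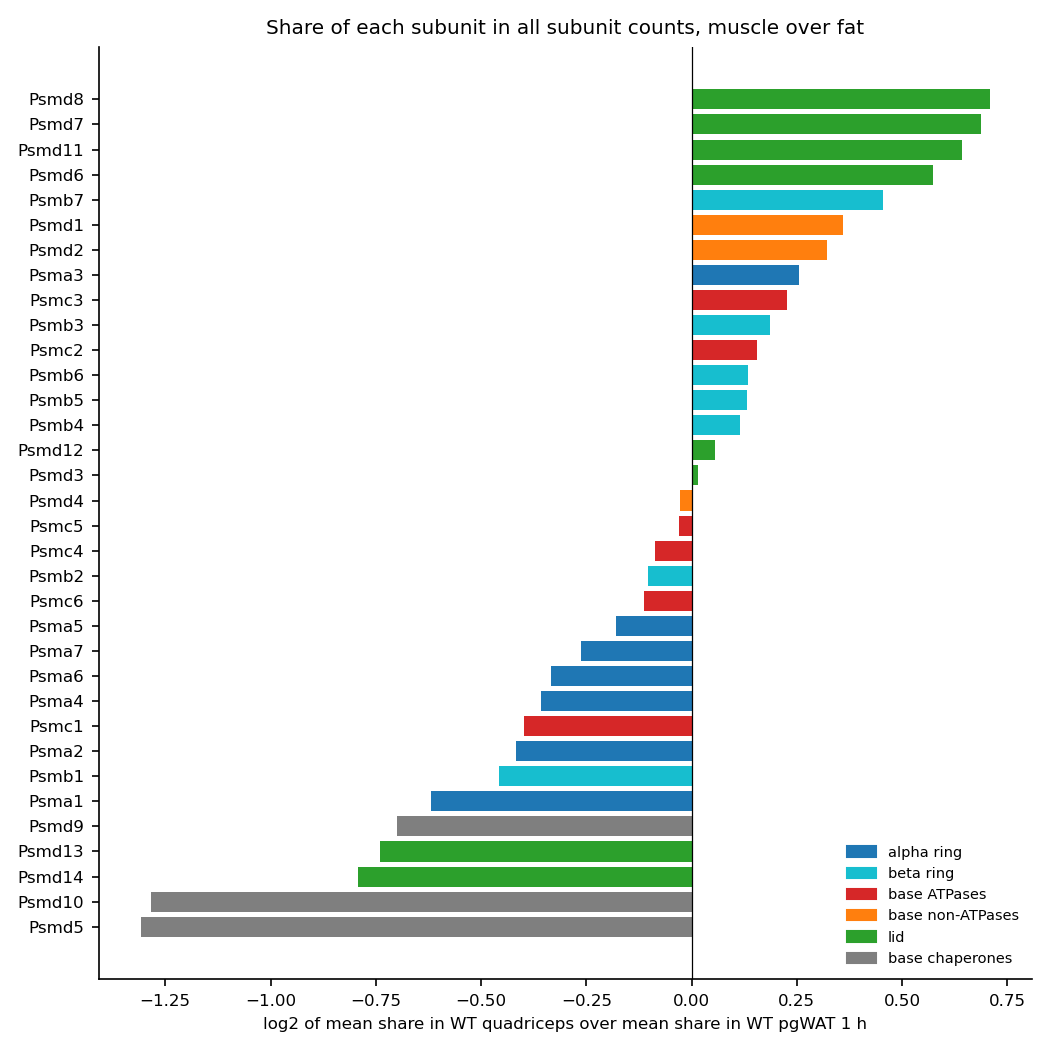
Log2 of the mean share of each subunit in all subunit counts in WT quadriceps over its mean share in WT pgWAT at 1 h (bars), by subunit, coloured by role. The bars reach from Psmd8 (ratio 1.63) at the top to Psmd5 (ratio 0.404) at the bottom, where the base chaperones Psmd5 and Psmd10 lie below the lid subunits Psmd14 and Psmd13.

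Between the fat sets the shares also differed, and there the kit, the table and the time all changed. Psmb2, a beta ring subunit, took 0.991% of the subunit counts in WT fat at 6 h and 0.505% at 1 h, and Psmd10 took 0.568% at 6 h and 1.51% at 1 h. Against WT fat at 6 h the order of muscle and fat was therefore reversed for Psmd10 (0.619% in WT quadriceps). It was also reversed for Psmd11, at 2.13% in WT quadriceps and 2.22% in WT fat at 6 h. Psmd8, Psmd7, Psmd6, Psmd14, Psmd13 and Psmd5 kept their order. Counts came from 3′ ends, and 4 of the 35 subunits (Psma3, Psmb7, Psmc3 and Psmd1) had another annotated gene over their last 500 bases in GENCODE vM21, so their reads could include those of the neighbour. Listed pseudogenes of the subunits had at most 6 counts over all libraries of a set.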

How the data were processed

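RNA from 50 tissue pieces was made into QuantSeq 3′ libraries, with a UMI kit for quadriceps and pgWAT at 1 h and the standard kit at 6 h, per the labels' protocols. The submitters' processing notes list bcl2fastq 2.20.0.422, UMI-tools 1.1.2, cutadapt 1.18, STAR 2.7.10 and the builds GRCm38 and GRCm39. Neither the counting program, nor its strand setting, nor which build a table used is given in the sources used here. Values were raw gene counts as deposited by the authors, in 3 tables. Rows that name no gene were left out. They held 25.1%, 34.7% and 0.214% of all rows' counts on average in quadriceps, pgWAT at 1 h and pgWAT at 6 h.

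Tables were joined on the gene identifier without its version. Each set was fitted on its own with edgeR 4.0.16 (filterByExpr, TMM, robust quasi-likelihood F test) in R 4.3.3, with Benjamini-Hochberg adjustment over all genes tested and a threshold of 0.05. The standard error is the log2 change divided by the square root of F. DESeq2 1.42.0 was an alternative. The fits were tested on simulated data. Log2 ratios of counts were compared with an exact permutation test. Intervals and the detection floor (3 counts, 0.233 to 3.13 CPM per library) cover counting or replicate error only. Nothing in the labels ties replicates to separate animals beyond their numbering, so p-values measure the spread between these libraries. No pair of libraries in a set agreed within counting noise (lowest chi-square per degree of freedom 1.53).

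Members, gene lists and tests were chosen with earlier results of these data known. Named were all called subunits, the 3 active subunits, the 3 smallest and the 1 largest p in each set, called related genes and a fixed few partners. Psma1, Psma2, Psma5, Psmb2, Psmc5, Psmd5, Psmd9, Zfand2a and the subunits of the tissue comparison were named after their values were seen. Paaf1, an assembly factor on the list, was not analysed here, and 1 other listed gene is not reported here.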

Additional observations from a re-analysis of the deposited data

Results flagged for a closer look

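Samples far from the rest of their group were looked for in the named genes and in the summed core, the summed cap and their ratio. Of 186 groups checked, 16 held such a sample, and chance alone flags about 1 group in 20. No cause was tested.

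At 6 h TG 3 was far above the other TG libraries in the summed cap (3001 CPM, next 2710 CPM), in Psmb6 (156.2 CPM, next 127.9 CPM) and in Psmd8 (275.7 CPM, next 262.0 CPM). TG 1 was highest in Psmb8 (75.91 CPM, next 59.89 CPM). Among WT libraries at 6 h, WT 4 was low in Psmb5 (18.81 CPM, next 21.25 CPM) and high in Ufd1 (112.5 CPM, next 98.66 CPM), WT 3 was high in Adrm1 (35.34 CPM) and WT 2 was low in Psmb9 (44.03 CPM, next 50.29 CPM).

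At 1 h TG 7 was high in Psmd14 (132.8 CPM, next 97.36 CPM) and in the ratio of core to cap (0.8947, next 0.7935), TG 3 was high in Ddi2 (168.6 CPM), TG 5 was low in Sem1 (71.52 CPM, next 128.8 CPM) and WT 9 was high in Psmf1 (97.44 CPM, next 49.16 CPM). In quadriceps WT 1, the library with the fewest counts, was high in Psmb6 (293.8 CPM, next 212.2 CPM) and Adrm1 (27.51 CPM) and low in Psmc2 (124.4 CPM, next 183.5 CPM).

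The genotype effect differed between sets, by the interaction test, for 4 of the named genes. The effect at 6 h minus that at 1 h in pgWAT was 0.39 log2 units for Psma6 (edgeR adjusted p = 0.0223), 0.76 for Zfand5 (0.000315) and 0.66 for Ddi2 (0.00958). The effect in quadriceps minus that in pgWAT at 6 h was -0.76 for Zfand5 (adjusted p = 0.00011), -0.87 for Ddi2 (8.02e-07) and -0.81 for Fbxo32 (0.0201). The Fbxo32 call was lost when genes with low counts were not filtered (adjusted p = 0.0531). These differences cannot be told apart from those of kit, depth and, in the second comparison, tissue and clamp.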

How the results depend on the processing

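At 6 h library totals left 1 subunit called higher, with a median log2 change of 0.016. In the interaction of the fat sets no filter on low counts left 0 subunits that differ, and DESeq2 called 2 in quadriceps against pgWAT at 6 h. Leaving out each library in turn gave 0 to 0 subunits higher and 0 to 1 lower in quadriceps (median 0.014 to 0.04), 0 to 0 in either direction at 1 h (median -0.052 to -0.015), and 3 to 4 higher and 0 to 1 lower at 6 h (median 0.05 to 0.1). The subunit called lower was Psmd7 in quadriceps without WT 3 or WT 6 and Psma5 at 6 h without TG 1. With the remainder of the library number after division by 8 as a factor, 0 subunits were called in quadriceps and 0 at 1 h. The causes were not tested. Of the values of single genes and ratios, 0 of 26 called ones and 27 of 70 that were not called changed sign under at least 1 alternative.

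The replicate numbers did not pair the libraries: 3 of 10, 4 of 9 and 1 of 6 same-numbered pairs in quadriceps, at 1 h and at 6 h correlated above 0.1. With the replicate block, 0 subunits were called in quadriceps and at 1 h and 2 at 6 h, Psmc4 having an adjusted p of 0.0586. The median standard error of a subunit's log2 change was 0.08 in quadriceps and 0.10 at 1 h, the sets with fewer counts, and 0.06 at 6 h, where kit and depth cannot be told apart. Over all genes, 240 were called in quadriceps with no filter (164 with it), and at 1 h 1 without the libraries that stood apart, 19 with DESeq2 and 3 to 12 when each library was left out (8 in full). At 1 h the log2 ratio of Psmb10 to Psmb7 differed by 0.68 without the libraries that stood apart (exact permutation p = 0.0238), an alternative chosen after seeing the data, against 0.16 with them.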
